A study of Mus musculus with 8 samples.

Results

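The 37 genes described here encode the enzymes of glycolysis, the carriers and regulators that set its flux, and genes known for their response to low oxygen. They were followed in striatal cells transfected with the transcription factor Bcl11b. Every probe whose annotated symbol was one of these gene names, or an older name that belongs to only 1 gene, was taken. This gave 52 of 25697 probes, for 34 of the 37 genes. Glycolytic enzymes held 22 probes for 14 of 16 listed genes, glucose transport and flux control held 10 probes for 7 of 7 genes, and the hypoxia response held 20 probes for 13 of 14 genes. Older names placed 6 of the probes, those of Gapdh, Ldha, Pfkfb4 and Higd1a. Gpi1, Ldhb and Ankrd37 were not analysed here.

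The study asked which transcripts respond to Bcl11b, a zinc finger factor enriched in the striatum. RNA came from STHdh cells, a conditionally immortalized progenitor line of mouse embryonic striatum with wild-type huntingtin, and was hybridised to 8 Illumina MouseRef-8 arrays. The Bcl11b group (4 arrays) received a Bcl11b cDNA (beta isoform) in the pcDNA3.1 expression vector, and the control group (4 arrays), labelled wild-type, received empty pcDNA3.1. Both groups were the same cells, transiently transfected in the same way, so a culture can also hold cells that took up no plasmid, and the control is mock-transfected rather than untouched. Because RNA was taken from whole cultures, fewer cells expressing a gene and less of its RNA per cell cannot be told apart.

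Glycolysis turns glucose into pyruvate in the cytosol with a small yield of ATP, and pyruvate is then either reduced to lactate or burned in mitochondria. Many of its enzymes, the glucose carriers and lactate export are known targets of hypoxia-inducible factor (HIF), which pairs an oxygen-regulated alpha subunit such as Hif1a with a constant beta subunit. When oxygen is plentiful, prolyl hydroxylases of the Egln family mark the alpha subunit for Vhl-dependent destruction. When it is scarce, HIF accumulates and binds a short core element near genes for angiogenesis, glucose metabolism, mitophagy and collagen modification.

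That core element, A or G followed by CGTG on either strand, was searched for in the 250 bases before each annotated start of the members in the RefSeq promoter table for GRCm38.p6. Of the 34 genes with a probe, 31 had 1 or more such windows, and Slc2a3, Bnip3l and Ndrg1 had no entry in the table. The element was found in 39 of 47 member windows (83.0%) and in 12679 of 32851 windows of all genes (38.6%). Windows of the same gene overlap for Eno1, Aldoa and Pfkm and share matches, so the member windows are not independent. The element holds a CG, and the base composition of the windows was not compared. By class, 20 of 25 glycolytic enzyme windows (80%), 7 of 8 transport and flux windows (87.5%) and 12 of 14 hypoxia windows (85.7%) held it. A match is only a description of the letters. The windows below are examples and do not cover every lower gene, Pfkm being left out. They are Pfkfb4, P4ha2, Mxi1 and Vegfa, each lower with Bcl11b at the nominal threshold given below, and Ldha, whose level was almost the same in both groups after quantile normalization. Vegfa and Mxi1 each had no match before their first start, and for Vegfa that first window is shown while for Mxi1 a later one with a match is. They are read 5′ to 3′ on the gene's own strand, with capitals marking the core element. An element on the opposite strand reads CACG and then C or T, and a run of CACGTG holds the element on both strands.
Pfkfb4: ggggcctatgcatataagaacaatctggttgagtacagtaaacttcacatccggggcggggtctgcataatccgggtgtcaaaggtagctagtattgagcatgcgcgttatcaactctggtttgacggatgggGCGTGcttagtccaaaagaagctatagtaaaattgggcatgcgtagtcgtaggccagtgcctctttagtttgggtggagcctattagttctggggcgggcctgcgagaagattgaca
P4ha2: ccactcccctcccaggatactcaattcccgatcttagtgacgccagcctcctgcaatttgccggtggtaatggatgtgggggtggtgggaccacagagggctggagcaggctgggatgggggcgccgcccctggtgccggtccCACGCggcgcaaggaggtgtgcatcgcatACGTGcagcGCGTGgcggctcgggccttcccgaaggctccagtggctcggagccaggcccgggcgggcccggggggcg
Mxi1: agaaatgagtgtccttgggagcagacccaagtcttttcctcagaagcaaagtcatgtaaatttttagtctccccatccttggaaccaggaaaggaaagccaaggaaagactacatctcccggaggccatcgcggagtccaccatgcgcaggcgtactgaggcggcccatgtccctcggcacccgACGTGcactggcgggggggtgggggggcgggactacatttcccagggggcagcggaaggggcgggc
Vegfa: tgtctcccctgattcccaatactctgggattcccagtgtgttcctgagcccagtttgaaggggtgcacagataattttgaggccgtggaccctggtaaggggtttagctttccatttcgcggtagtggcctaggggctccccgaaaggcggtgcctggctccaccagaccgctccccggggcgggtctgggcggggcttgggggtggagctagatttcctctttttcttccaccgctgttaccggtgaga
Ldha: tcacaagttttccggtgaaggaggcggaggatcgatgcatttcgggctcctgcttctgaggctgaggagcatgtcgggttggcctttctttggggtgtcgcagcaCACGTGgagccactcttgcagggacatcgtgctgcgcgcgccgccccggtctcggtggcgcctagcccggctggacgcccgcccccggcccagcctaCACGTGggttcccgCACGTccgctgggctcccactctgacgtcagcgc
The Pfkfb4 window lies at chr9:108991652-108991901 on the plus strand and holds 1 match. The P4ha2 window lies at chr11:54100674-54100923 on the plus strand and holds 3. The Mxi1 window lies at chr19:53329163-53329412 on the plus strand before the second of 3 annotated starts and holds 1, and the window before the third start also held 1. The Vegfa window lies at chr17:46032378-46032627 on the minus strand, and its other annotated window, before a start further into the gene, held 2 matches. The Ldha window lies at chr7:46845554-46845803 on the plus strand and holds 5, and a second Ldha window held 1. Tpi1 was the 1 gene of the 31 with no match in any window.

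Each array gave a background-subtracted bead signal and a detection p-value for every probe. A probe was called detected at a detection p under 0.01, which 10121 to 10784 probes reached per array. Before scaling, the Bcl11b arrays were dimmer, with a median deposited signal of 20.1 to 30.2 per array beside 31.6 to 53.9 for pcDNA3.1. All log2 signals below follow quantile normalization across the 8 arrays. The Bcl11b probe was detected on no array, so the level of the transfected gene is not shown by these data. No probe of the medium spiny neuron markers was detected (8 probes, 6 genes), whereas 7 of 8 neural progenitor probes were detected on all arrays. So were 2 of 10 neuronal probes (Stmn2 and Map2 ILMN_3137552) and 5 of 9 fibroblast and mesenchyme probes. No astrocyte, oligodendrocyte, microglia and leukocyte or endothelium probe was detected on all arrays. At the nominal threshold described next, 1 of 2 Nes probes was higher with Bcl11b (log2 difference 0.43, the other -0.00) and 1 of 2 Sox2 probes lower (-0.71, the other 0.20). The mesenchymal Pdgfrb was lower (-0.49), while Col1a1 was at 0.22 and the 3 Acta2 probes were at 0.34, -0.04 and 0.28 without passing. Of the neuronal Syn1 probes, 1 was lower (-1.04, detected on 4 of 8 arrays) and the other stood at 0.87 without passing. Cd68, a macrophage marker, was higher with no overlap but was detected on only 2 Bcl11b arrays and no pcDNA3.1 array. Slc1a2 (astrocyte) and Pecam1 (endothelium) each had 1 probe past the threshold that was detected on no array. The part of these markers in the results was not tested.

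No member passed the limma test at a Benjamini-Hochberg adjusted p under 0.10, against 0.981% of all probes that did (252 of 25697). At an unadjusted p under 0.05, 11 of the 52 member probes passed, beside 10.4% of all probes. At the nominal threshold of the study's methods, an unadjusted p under 0.05 with a signal at least 25% higher in 1 group than in the other, 10 of 52 member probes passed and all 10 were lower with Bcl11b. That is 19.2% of the member probes, beside 9.02% of all probes passing in either direction, 5.81% lower and 3.2% higher. Of the member probes, 33 were detected on all 8 arrays, 16 on none and 3 on some. Among the 33, 9 passed (27.3%), all lower, beside 14.3% of all probes so detected, with 10.5% lower and 3.8% higher. The 4 Bcl11b arrays lay wholly apart from the 4 pcDNA3.1 arrays for 7 of the 33 (21.2%), beside 9.88% of all detected probes. The median log2 difference, Bcl11b minus pcDNA3.1, was -0.092 over the 52 probes and 0.000 over all probes. The lower probes were unevenly spread over the classes: 6 of 20 hypoxia probes, 2 of 10 transport and flux probes and 2 of 22 glycolytic probes. The lists were chosen with earlier results of these data known, so these shares only describe the members and are no independent test.

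**Figure D1:**
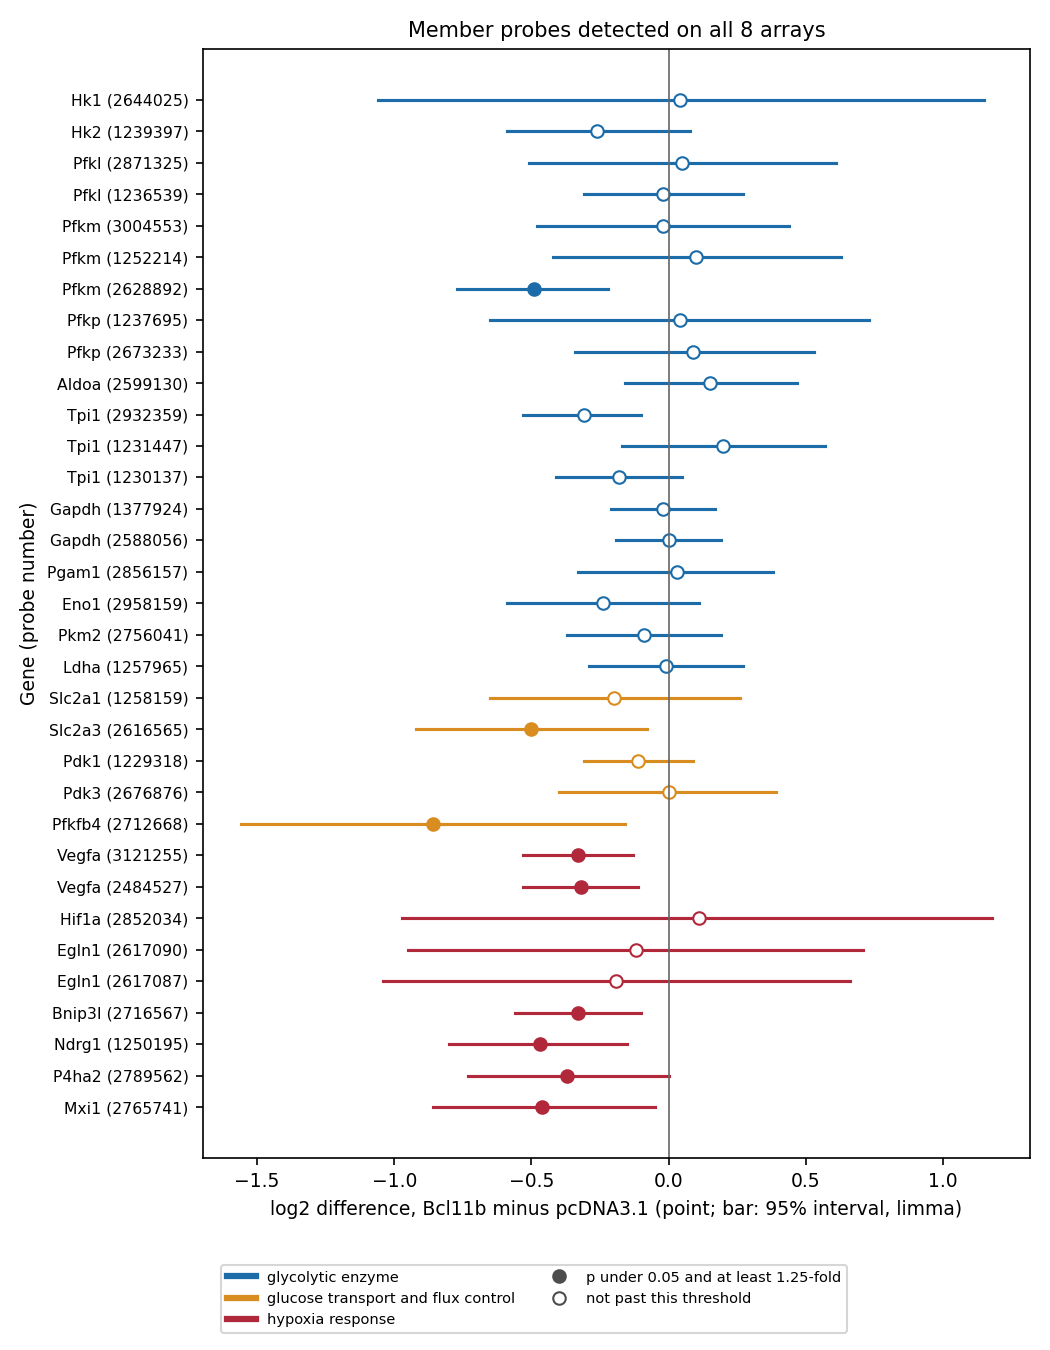
Log2 difference, Bcl11b minus pcDNA3.1, with its 95% interval from limma, for the 33 member probes detected on all 8 arrays (4 per group), coloured by class and filled where the nominal threshold (p under 0.05 and a 25% change) was passed. The 9 filled points all lie left of 0, and 6 of them are probes of 5 hypoxia genes, whereas glycolytic enzymes lie on both sides.

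For the oxygen-sensing genes themselves, no difference between the groups was larger than the spread of the arrays. Hif1a, the oxygen-regulated subunit, read 7.93, 9.61, 8.86 and 9.74 on the pcDNA3.1 arrays 1 to 4 and 8.94, 9.01, 8.89 and 9.73 on the Bcl11b arrays 1 to 4 (log2 signal). Its log2 difference was 0.11 ± 0.45 (SE, limma, adjusted p = 1), with a 95% interval from -0.97 to 1.18. The 4 Bcl11b arrays all lay within the wider pcDNA3.1 range, and the interval leaves room for about a 2-fold change either way.

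Egln1, the main prolyl hydroxylase of HIF, was read by 3 probes. ILMN_2617090 read 7.57, 8.52, 7.76 and 8.11 with pcDNA3.1 and 7.67, 7.30, 7.85 and 8.67 with Bcl11b, a log2 difference of -0.12 ± 0.35 (SE). ILMN_2617087 read 7.13, 8.03, 6.88 and 7.43 against 6.59, 6.91, 7.40 and 7.81, a log2 difference of -0.19 ± 0.35. The third, ILMN_2617086, was detected on 2 pcDNA3.1 and 3 Bcl11b arrays and read 5.64, 6.96, 6.08 and 6.59 against 6.56, 6.11, 6.83 and 7.45, a log2 difference of 0.42 ± 0.39. The groups overlapped for all 3 probes, whose signs also differed. Egln3, a hydroxylase that HIF itself induces, was detected on no array with either of its 2 probes. Its log2 signals reached at most 5.42 in the control group and 5.41 in the Bcl11b group.

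Hypoxia response genes downstream of HIF were where the lower probes gathered. Ndrg1, a stress-induced protein of the differentiation-related family, was lower by 1.39-fold. It read 10.13, 10.13, 10.33 and 10.53 on the pcDNA3.1 arrays and 9.78, 9.67, 9.68 and 10.09 on the Bcl11b arrays, with no overlap, and its log2 difference was -0.47 ± 0.13 (SE, limma, adjusted p = 0.279). Bnip3l, a receptor that marks mitochondria for autophagy, read 11.01, 11.10, 11.18 and 11.33 against 10.84, 10.81, 10.65 and 11.00. The highest Bcl11b array thus lay just under the lowest pcDNA3.1 array, and the log2 difference was -0.33 ± 0.095 (adjusted p = 0.289). Bnip3l missed the nominal threshold without pcDNA3.1 array 3 (-0.32) or 4 (-0.27) or Bcl11b array 3 (-0.27), whereas Ndrg1 passed it with any 1 array left out.

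Vegfa, the growth factor that drives new vessels, was lower on both of its detected probes by about the same amount. ILMN_3121255 read 8.66, 8.83, 8.83 and 8.94 with pcDNA3.1 and 8.59, 8.36, 8.40 and 8.61 with Bcl11b, a log2 difference of -0.33 ± 0.084 (SE, limma, adjusted p = 0.229). ILMN_2484527 read 10.55, 10.54, 10.76 and 10.73 against 10.36, 10.45, 10.13 and 10.35, a log2 difference of -0.32 ± 0.086 (adjusted p = 0.251). Neither probe's groups overlapped, although both fold changes lay at the edge of the fold threshold (1.26-fold for ILMN_3121255). The first probe missed it without pcDNA3.1 array 4 (-0.29) or Bcl11b array 2 (-0.28) or 3 (-0.30), and the second without pcDNA3.1 array 3 (-0.28) or 4 (-0.30) or Bcl11b array 3 (-0.26). The third Vegfa probe, ILMN_3045723, was at the floor of the scale on all 8 arrays.

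Mxi1, a Myc antagonist, was lower by 1.37-fold with no overlap between groups. Its pcDNA3.1 arrays read 8.62, 7.97, 7.89 and 8.32 and its Bcl11b arrays 7.78, 7.79, 7.78 and 7.63, a log2 difference of -0.46 ± 0.17 (SE, limma, adjusted p = 0.41). It missed the nominal threshold without pcDNA3.1 array 1 (-0.32) or 4 (-0.42), and without any 1 of the Bcl11b arrays (-0.47 to -0.42). P4ha2, a subunit of the prolyl hydroxylase that stabilizes collagen, read 8.50, 8.0, 8.72 and 8.44 against 7.95, 8.01, 8.07 and 8.15. Here the pcDNA3.1 array 2 fell within the Bcl11b range, and the log2 difference was -0.37 ± 0.15 (adjusted p = 0.475). With any 1 array other than pcDNA3.1 array 2 left out it missed the nominal threshold (-0.41 to -0.27), and without that array it was at -0.51. Its paralogue P4ha1, detected on 7 of the 8 arrays, differed by -0.09.

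The remaining hypoxia genes gave little signal. Adm (adrenomedullin, a vasodilator peptide), Bnip3 (a relative of Bnip3l) and all 3 probes of Car9 (a membrane carbonic anhydrase) were detected on no array. Higd1a, a mitochondrial protein, was detected on 2 pcDNA3.1 arrays and on no Bcl11b array, and its pcDNA3.1 signals ran from 1.78 to 6.63, so no fold is given. Over the 20 hypoxia probes the median log2 difference was -0.325. Over the 9 detected on all arrays it was -0.328, beside -0.026 for all detected probes. Of the 9, 8 lay below 0, beside 4996 of the 9360 probes so detected. Vegfa and Egln1 each gave 2 of the 9 probes, so these are not all separate genes. These 9 probes lay, as a median, 0.02, 0.11, 0.18 and 0.29 above their own means over the 8 arrays on pcDNA3.1 arrays 1 to 4. On Bcl11b arrays 1 to 4 the same median was -0.19, -0.22, -0.20 and 0.01, so that the fourth Bcl11b array stood close to the first pcDNA3.1 array and apart from the rest of its group. The number of hypoxia probes past the nominal threshold went from 6 to 1 without Bcl11b array 3, to 2 without pcDNA3.1 array 4 and to 3 without pcDNA3.1 array 3. Without pcDNA3.1 array 4, Ndrg1 was the only one of the 6 that still passed. The other probe counted there was not among the 6.

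**Figure D2:**
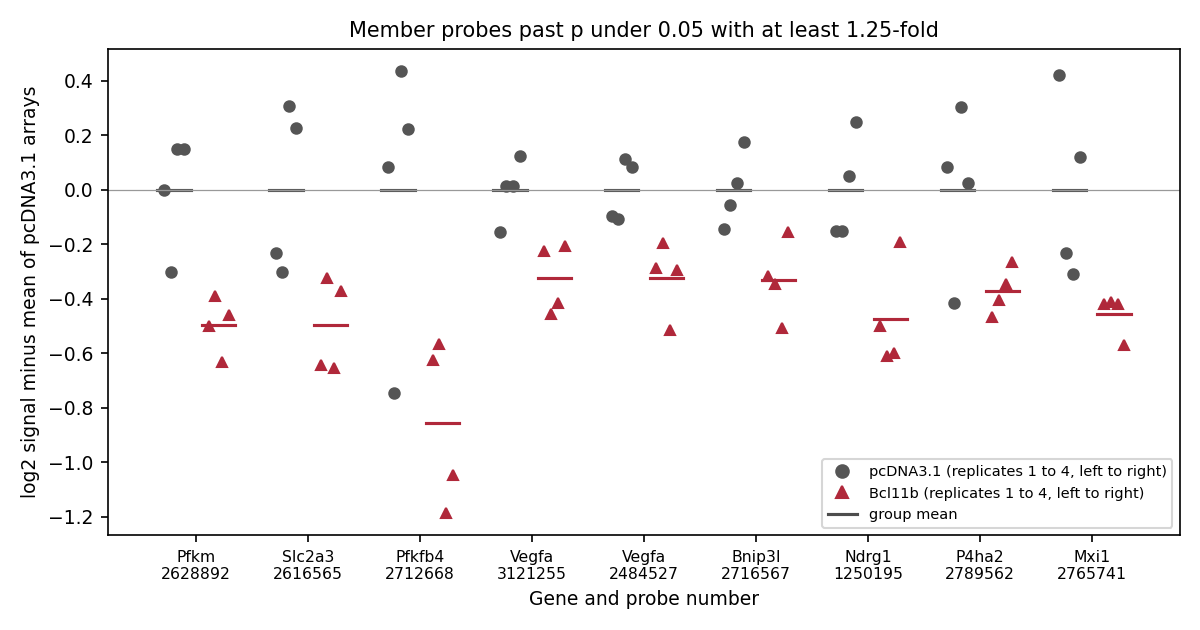
Log2 signal of the 9 detected member probes past the nominal threshold, as the difference from the mean of the 4 pcDNA3.1 arrays (grey circles), beside the 4 Bcl11b arrays (red triangles), with group means as lines. The groups overlap for Pfkfb4 and P4ha2, where pcDNA3.1 array 2 is low, and are apart for the other 7 probes.

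Of the carriers, Slc2a3 (GLUT3, the high-affinity glucose carrier of neurons) was lower, and Slc2a1 (GLUT1, the widely expressed carrier) did not pass the threshold. Slc2a3 read 8.98, 8.91, 9.52 and 9.44 on pcDNA3.1 arrays and 8.57, 8.89, 8.56 and 8.84 on Bcl11b arrays, a log2 difference of -0.50 ± 0.17 (SE, limma, adjusted p = 0.379). The groups did not overlap, but array 2 of each group nearly met. Slc2a3 missed the nominal threshold without pcDNA3.1 array 3 (-0.39) or 4 (-0.43) or Bcl11b array 1 or 3 (-0.45 each). Slc2a1 read 11.02, 10.95, 11.65 and 11.48 against 10.97, 11.13, 10.90 and 11.31, a log2 difference of -0.20 ± 0.19 (adjusted p = 0.802) with overlapping groups. The lactate exporter Slc16a3 was detected on no array with any of its 3 probes.

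The flux-control enzyme Pfkfb4, a bifunctional regulator of phosphofructokinase that HIF induces, had the lowest log2 difference of the detected members. It read 9.35, 8.52, 9.70 and 9.49 with pcDNA3.1 and 8.64, 8.70, 8.08 and 8.22 with Bcl11b, a log2 difference of -0.86 ± 0.29 (SE, limma, adjusted p = 0.371), or 1.81-fold. The pcDNA3.1 array 2 lay inside the Bcl11b range and the other 3 pcDNA3.1 arrays lay above it. It missed the nominal threshold without pcDNA3.1 array 1, 3 or 4 or Bcl11b array 3 or 4 (-0.82 to -0.71). Pdk1, a kinase that inhibits pyruvate dehydrogenase, read 7.33, 7.34, 7.23 and 7.23 against 7.13, 7.0, 7.39 and 7.17. Its log2 difference was -0.11 ± 0.083 (adjusted p = 0.791), with a 95% interval from -0.31 to 0.09. Pdk3, another such kinase, differed by less than 0.01. The second Pfkfb4 probe and Pfkfb3 were detected on no array. All 5 detected probes of this class lay at or below 0, with a median of -0.195, and 2 of the 5 passed the threshold. Of all 9360 probes so detected, 4996 lay below 0.

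The glycolytic enzymes did not share the tilt of the hypoxia genes after quantile normalization. Of their 19 detected probes, 8 lay above 0 and 11 below, with a median log2 difference of -0.012 beside -0.026 for all detected probes, and 1 passed the nominal threshold (5.26%). That was 1 of 3 detected probes of Pfkm, the muscle-type phosphofructokinase that commits sugar to glycolysis. ILMN_2628892 read 11.84, 11.54, 11.99 and 11.99 with pcDNA3.1 and 11.34, 11.45, 11.21 and 11.38 with Bcl11b, a log2 difference of -0.49 ± 0.11 (SE, limma, adjusted p = 0.191) with no overlap. The other Pfkm probes, ILMN_3004553 and ILMN_1252214, differed by -0.02 and 0.10, so the 3 probes of this gene disagreed. Of the other phosphofructokinases, the 2 Pfkl probes differed by 0.05 and -0.02, and the 2 detected Pfkp probes by 0.04 and 0.09.

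Hexokinase 2 (Hk2), the inducible enzyme that traps glucose in the cell, read 11.34, 11.79, 11.78 and 11.98 against 11.37, 11.60, 11.40 and 11.50. Its log2 difference was -0.26 ± 0.14 (SE, limma, adjusted p = 0.65), and pcDNA3.1 array 1 lay below all Bcl11b arrays while the other 3 lay above them. Further along the pathway, Tpi1, the triose phosphate isomerase, was read by 3 probes at -0.31, 0.20 and -0.18. The first of these (ILMN_2932359) had an adjusted p of 0.282 and a 1.24-fold change, just outside the fold threshold. Aldoa, an aldolase, differed by 0.15, Pgam1, a phosphoglycerate mutase, by 0.03, and Eno1, the ubiquitous enolase, by -0.24. Gapdh differed by -0.02 on 1 probe and by less than 0.01 on the other, and Pkm2, the pyruvate kinase, by -0.09.

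Ldha, which makes lactate from pyruvate, read 13.77, 14.13, 14.02 and 14.07 on pcDNA3.1 arrays and 13.93, 13.79, 14.00 and 14.22 on Bcl11b arrays. The log2 difference was -0.01 ± 0.12 (SE, limma, adjusted p = 1), with a 95% interval from -0.29 to 0.27. Aldoc, the brain aldolase, also passed the nominal threshold as lower, but it was detected on no array, so its fold is not given. Pgk1 (phosphoglycerate kinase) and the third Pfkp probe were likewise detected on no array.

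The calls in both the glycolytic and the hypoxia class depended on how the arrays were scaled. When signals were instead divided by the median of their array, 5 of the 19 detected glycolytic probes passed the nominal threshold as higher with Bcl11b and 0 as lower (26.3% higher, beside 8.11% higher and 6.62% lower for all detected probes). These were Gapdh at 0.53 and 0.71, Pkm2 at 0.63, Ldha at 0.57 and Eno1 at 0.48, with adjusted p (limma) from 0.27 to 0.394. Over all 22 glycolytic probes this scaling gave 6 past the threshold, the sixth being the undetected Aldoc (-0.84, lower), against 2 lower and 0 higher after quantile normalization. The median of the 19 moved from -0.012 to 0.123, while that of all detected probes moved from -0.026 to 0.067.

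The same 5 probes ranked at the 99.6 to 99.9 percentile of brightness among all probes and stood at 45.7% to 89.2% of the highest signal on their array. Their deposited signals overlapped between groups; Ldha, for example, ran from 16224 to 18867 on pcDNA3.1 arrays and from 13219 to 18076 on Bcl11b arrays. Among all detected probes, the median unscaled log2 difference went from -0.79 in the dimmest bin to -0.29 in the brightest (222 probes). After division by the median the same bins stood at -0.04 and 0.47. The part of brightness in the glycolytic values was not tested. Among hypoxia probes this scaling left 2 of the 6 past the nominal threshold, Ndrg1 (-0.41) and Mxi1 (-0.45). Bnip3l (-0.24), P4ha2 (-0.36) and both Vegfa probes (-0.29 and -0.26) no longer passed, although they lay on the same side of 0, and the median of the 9 detected hypoxia probes was -0.260. Of the transport class, Pfkfb4 (-0.82) passed and Slc2a3 (-0.46) did not.

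**Figure D3:**
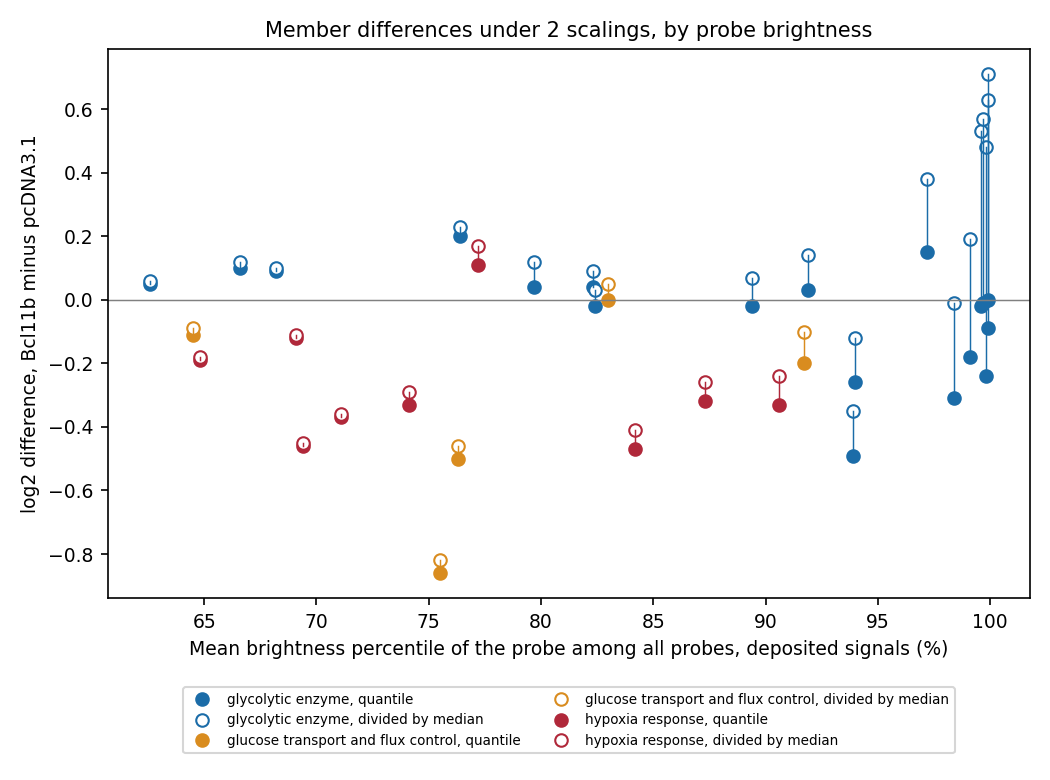
Log2 difference, Bcl11b minus pcDNA3.1, of the 33 detected member probes after quantile normalization (filled) and after dividing each array by its median (open), joined by a line, against the probe's mean brightness percentile in the deposited signals. The distance between the 2 readings grows toward the bright end, where 5 glycolytic probes move from near or below 0 to between 0.48 and 0.71, while the hypoxia probes move little.

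Several members varied widely among arrays of 1 group and in a similar way from gene to gene. Hk1, the constitutive hexokinase, read 8.62, 10.46, 8.80 and 9.76 on pcDNA3.1 arrays and 9.26, 9.14, 9.40 and 10.01 on Bcl11b arrays. Pfkp, the platelet-type phosphofructokinase, read 9.25, 10.11, 9.60 and 10.10 against 9.49, 9.47, 9.87 and 10.36 with ILMN_1237695. As for Hif1a and 2 Egln1 probes above, pcDNA3.1 arrays 2 and 4 were the highest of the control group and Bcl11b array 4 the highest of its own. The other detected Pfkp probe, ILMN_2673233, read 7.42, 7.83, 7.88 and 7.91 against 7.57, 7.74, 7.85 and 8.26. For that probe Bcl11b array 4 was also highest, but pcDNA3.1 arrays 3 and 4 were the highest controls. Hk1 and Pfkp were chosen for this description after their values were seen. The group differences of Hk1 and of Pfkp ILMN_1237695 were both 0.04, with SEs of 0.46 and 0.29. Their 95% intervals, -1.06 to 1.15 for Hk1 and -0.65 to 0.73 for this Pfkp probe, included the value seen for Ndrg1.

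**Figure D4:**
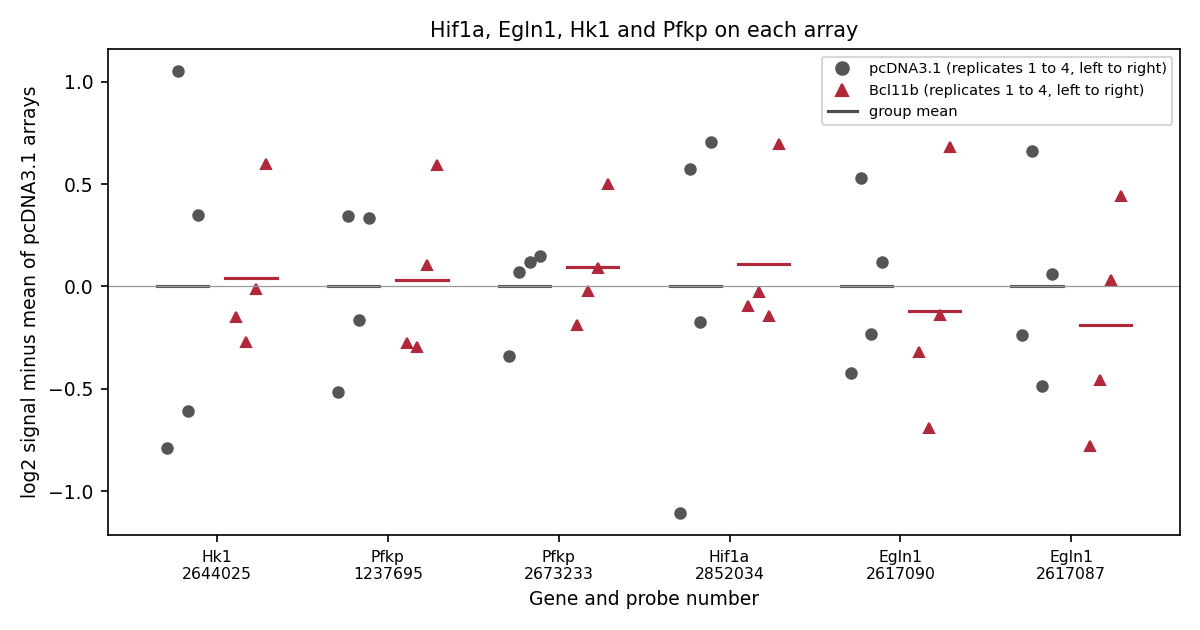
Log2 signal on each array as the difference from the mean of the 4 pcDNA3.1 arrays, for the detected probes of Hk1, Pfkp, Hif1a and Egln1 (grey circles, pcDNA3.1; red triangles, Bcl11b; lines, group means). Bcl11b array 4 is the highest of its group for all 6 probes, and the group means lie within the spread of the arrays.

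Neighbouring genes of the same pathways showed differences in both directions, and again none at an adjusted p under 0.10. Over all probes, 9.02% passed the nominal threshold, and 14.3% of those detected on all 8 arrays did. Of 41 probes for other HIF target genes, 4 were lower and 1 higher at the nominal threshold, all 5 among the 24 detected on all 8 arrays. The median of the 41 was 0.036, so the median of this longer list did not lie below that of all probes. Plod1, a collagen lysyl hydroxylase, was lower with no overlap (8.16, 7.85, 8.30 and 8.12 against 7.84, 7.72, 7.69 and 7.34; log2 difference -0.46 ± 0.14 SE, limma, adjusted p = 0.309). Nfil3, a bZIP repressor, was lower by 0.43 ± 0.12 on the log2 scale, also without overlap. Bhlhe40, a hypoxia-induced clock repressor, and Nampt, an enzyme of NAD synthesis, differed by -0.39 and -0.45 with overlapping groups. Hmox1, the heme-degrading oxygenase, was higher with no overlap (10.01, 9.97, 9.61 and 9.59 against 10.10, 10.12, 10.24 and 10.53), at 0.45 ± 0.15 (adjusted p = 0.346).

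Among 15 probes for HIF subunits and regulators, 1 was higher and 2 were lower, all 3 among the 7 detected on all 8 arrays. Siah2, a ubiquitin ligase that acts on the Egln hydroxylases, was lower by 1.62-fold (8.62, 7.93, 8.59 and 8.49 against 7.74, 7.80, 7.62 and 7.65; log2 difference -0.70 ± 0.16 SE, limma, adjusted p = 0.193). Vhl, the substrate receptor of the ligase that destroys HIF alpha, differed by -0.42 ± 0.16. Cited2, which competes with HIF for its coactivator, was higher by 0.97 ± 0.39, and pcDNA3.1 array 2 alone (10.94) reached the Bcl11b range of 10.63 to 11.20. Siah2 was thus the only gene of this class whose groups did not overlap.

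Of the other metabolic lists, 3 of 19 probes for less common glycolytic isoenzymes were detected, and 4 of the undetected ones also passed the nominal threshold. Eno3, the muscle enolase, was lower with no overlap (9.99, 9.58, 9.76 and 9.78 against 9.28, 9.19, 9.39 and 8.97; log2 difference -0.57 ± 0.12 SE, limma, adjusted p = 0.157), while its ubiquitous relative Eno1 was at -0.24. The pentose phosphate pathway had 1 of 8 probes higher, Rpia (ribose phosphate isomerase, 0.81 ± 0.33, overlapping). Pyruvate dehydrogenase and its regulators had 1 of 11 probes lower, Pdp2 (a phosphatase that reactivates the complex, -0.45 ± 0.12, overlapping), whose other detected probe stood at 0.41 ± 0.33 without passing. None of 8 probes for further glucose and lactate carriers passed.

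**Figure D5:**
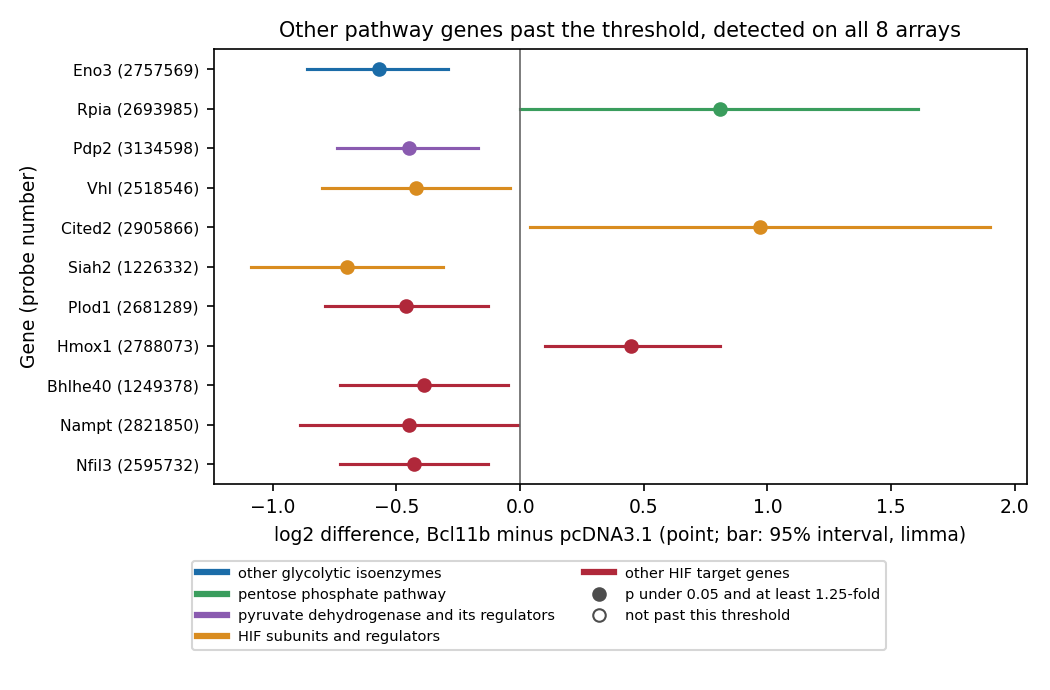
Log2 difference, Bcl11b minus pcDNA3.1, with its 95% interval from limma, for the 11 probes of neighbouring pathway genes past the nominal threshold and detected on all 8 arrays. Rpia, Cited2 and Hmox1 lie right of 0 and the other 8 left of it.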

How the data were processed

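The authors deposited, per the file headers, a background-subtracted bead intensity and a detection p-value for each of 25697 probes on 8 Illumina MouseRef-8 v2 arrays (GenomeStudio, per the labels; no version taken from them), with no normalization between arrays. Between 30.6% and 31.6% of the deposited intensity values on an array were at or below 0. The signals were quantile-normalized, floored at 1 and put on the log2 scale. Differences (Bcl11b minus pcDNA3.1, 4 arrays each) came from limma 3.58.1 (lmFit and eBayes, R 4.3.3) over all probes, with Benjamini-Hochberg adjustment and no covariate. The study's methods name quantile normalization, limma and the threshold of p under 0.05 with a change of at least 25%. Quantile normalization forces 1 distribution on all arrays, so a shift of most genes cannot be seen. Arrays limit precision by their number, and depth does not apply. Replicates were separate sets of transfected cells. Different probes of a gene were kept apart, and signals were not compared between probes. Gene names are those of the array annotation. Array values were printed for members past the nominal threshold or with groups apart and detected on at least 4 arrays (which leaves out Aldoc), and for Hif1a, Egln1, Vegfa, Slc2a1, Hk2, Ldha and Pdk1. Egln3 was named under the same rule and is given by its range. From the other pathway lists, genes past the nominal threshold and detected were named. The members and lists were chosen with earlier results of these data known. Scripts were tested on simulated data. Alternatives covered the scaling, the background model (neqc), an offset of 16, filters on detection p (0.01 and 0.05 on 4 arrays), a replicate block, limma-trend, array weights, 1 probe per symbol, leaving out each array and exact symbols (the last chosen after seeing the data).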

Additional observations from a re-analysis of the deposited data

Results flagged for a closer look

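In 66 groups of 4 arrays over the detected member probes, 4 had an array whose gap to the nearest of the others exceeded Dixon's 95% critical value, and chance gives this in about 1 group in 20. Hif1a on Bcl11b array 4 read 9.73, with the other 3 Bcl11b arrays between 8.89 and 9.01. Pfkm (ILMN_1252214) on the same array read 7.89, with the others between 7.49 and 7.54. Mxi1 on Bcl11b array 4 read 7.63, with the others at 7.78 and 7.79. Pfkp (ILMN_2673233) on pcDNA3.1 array 1 read 7.42, with the others between 7.83 and 7.91.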

How the results depend on the processing

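With no normalization between arrays, 57 probes in all and 0 members passed an adjusted p under 0.10. The nominal threshold was passed by 9 of 22 glycolytic, 6 of 10 transport and 9 of 20 hypoxia probes, all lower with Bcl11b. The share of all probes past the nominal threshold was not counted for this setting. It was counted only for the fit described above and for division by the median. The class medians were then -0.632 (glycolytic), -0.819 (transport) and -0.957 (hypoxia), against a shift of -0.491 in the median of all probes, detected or not. Over probes detected on all 8 arrays they were -0.629 (glycolytic), -0.850 (transport) and -1.012 (hypoxia), beside -0.684 for all such probes. The glycolytic median thus lay slightly above that of all detected probes. Hif1a (-0.59), Egln1 (ILMN_2617086, -0.34) and Hmox1 (-0.24) changed sign under that setting. Dividing each array by its median gave 146 probes in all and 0 members at an adjusted p under 0.10. At the nominal threshold it gave 6 glycolytic, 1 transport and 2 hypoxia probes. The glycolytic median was then 0.109, and Ldha stood at 0.57. With neqc, 413 probes in all passed an adjusted p under 0.10, and the hypoxia median was -0.112. A detection p under 0.01 on at least 4 arrays left 1 glycolytic probe past the nominal threshold, which removed Aldoc by construction. Exact symbols left 1 transport probe past it, which removed Pfkfb4 by construction. Limma-trend gave 45 probes in all at an adjusted p under 0.10, and 1 glycolytic probe at the nominal threshold. Array weights gave 642 probes in all at an adjusted p under 0.10, with 2 members (Ndrg1, adjusted p = 0.082, and Pfkm, adjusted p = 0.0934). The glycolytic median was then -0.105 and Hif1a stood at -0.17. The cause was not tested for the other changes.

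The replicate block (replicate numbers 1 to 4 shared by the groups) gave 45 probes in all and 0 members at an adjusted p under 0.10. At the nominal threshold it gave 0 transport and 3 hypoxia probes. The labels do not say whether same-numbered arrays were paired. Deviations of same-numbered arrays from their group means correlated over 9360 probes at 0.68, -0.63, 0.18 and 0.70. Those of differently numbered arrays correlated at -0.77 to 0.58, and these values do not settle whether the arrays were paired.

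Leaving out each array in turn gave 87 to 637 probes in all, 0 to 3 members at an adjusted p under 0.10, 1 to 3 glycolytic, 0 to 2 transport and 1 to 7 hypoxia probes. The 3 members appeared without pcDNA3.1 array 2: Pfkm (adjusted p = 0.0424), P4ha2 (0.0762) and Pfkfb4 (0.0873). Transport fell to 0 probes without pcDNA3.1 array 3 or 4 or Bcl11b array 3. The medians ran from -0.115 to 0.006 (glycolytic), -0.132 to -0.043 (transport) and -0.379 to -0.282 (hypoxia). Log2 differences ran from -0.09 to 0.05 for Ldha, -0.26 to 0.34 for Hif1a, -0.39 to 0.07 for Egln1 ILMN_2617090 and -0.40 to 0.03 for ILMN_2617087.

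Of 501 values of 28 named probes under the alternatives, 385 kept their direction and side of the nominal threshold, 95 lost it, 6 gained it and 15 changed sign. Ndrg1 passed in all 18 alternatives. The call was lost in 12 of 18 for P4ha2, 8 of 18 for Vegfa ILMN_2484527, 6 of 17 for Vegfa ILMN_3121255, 7 of 18 for Mxi1, 6 of 18 for Slc2a3, 6 of 18 for Pfkfb4, 4 of 18 for Bnip3l and 1 of 18 for Pfkm.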
